A study of Homo sapiens with 8 samples.

Results

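The 10 genes described here encode the transcription factor AP-1 and the immediate early factors around it: the Jun subunits JUN, JUNB and JUND, the Fos subunits FOS, FOSB, FOSL1 and FOSL2, and EGR1, IER2 and SRF. They were taken from the deposited tables by symbol and, for JUN, by identifier, as 10 of the 16383 genes of the count table, and all 10 passed the filter on low counts. MDA-MB-231 cells, an established line of mesenchymal, triple-negative breast cancer, were given 5 µM c-di-GMP for 24 h, or phosphate-buffered saline as the vehicle for the same 24 h, with 4 libraries of total RNA in each group. Both groups grew in DMEM with serum and antibiotics, and no other agent, time or genotype was compared. c-di-GMP is a cyclic dinucleotide of bacteria that the adaptor STING binds in mammalian cells, and the series' title names STING, metastasis and the proteasome subunit PSMD3.

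AP-1 is a dimer of a Jun and a Fos protein, or of a pair of Jun proteins, joined through leucine zippers, and it binds the palindromic site TGANTCA and sites close to it. Serum, growth factors and stress act through MAP kinases on these genes. FOS, FOSB, EGR1, IER2 and JUNB are classical immediate early genes whose RNA peaks within the first hours of a stimulus and then declines, and SRF, a MADS-box factor, binds the CArG boxes of many of their promoters. In mesenchymal breast cancer lines FOSL1, also called Fra-1, is the Fos protein best known for migration and invasion. JUN and FOSL1 are in turn stabilised as proteins by MAP kinase phosphorylation, which RNA counts do not measure.

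Promoter sequence from RefSeq (GRCh38.p14) is shown for 4 of the factors, because these windows hold the sites through which AP-1, ATF/CREB proteins and SRF are known to act on the family's own genes. RefSeq windows were matched for 9 of the 10 factors by symbol, with FOSL1 the other. The 250 bases before each start were searched on both strands for 4 motifs: the CArG box of SRF, TGANTCA of AP-1, TGACGTCA of ATF/CREB proteins, and TGACATCA, the form known from the JUN promoter. Capitals mark the matches, and none of the matches overlapped another.
JUN, chr1:58784096-58784125, minus strand, bases -78 to -49 from the start: aggccttggggTGACATCAtgggctatttt
JUND, chr19:18281623-18281872, minus strand, bases -250 to -1: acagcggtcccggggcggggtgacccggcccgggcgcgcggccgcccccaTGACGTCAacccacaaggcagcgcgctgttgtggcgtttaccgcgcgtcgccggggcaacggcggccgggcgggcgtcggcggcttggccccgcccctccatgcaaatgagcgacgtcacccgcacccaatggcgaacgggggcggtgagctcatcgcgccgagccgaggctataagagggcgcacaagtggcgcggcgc
EGR1, chr5:138465229-138465478, plus strand, bases -250 to -1: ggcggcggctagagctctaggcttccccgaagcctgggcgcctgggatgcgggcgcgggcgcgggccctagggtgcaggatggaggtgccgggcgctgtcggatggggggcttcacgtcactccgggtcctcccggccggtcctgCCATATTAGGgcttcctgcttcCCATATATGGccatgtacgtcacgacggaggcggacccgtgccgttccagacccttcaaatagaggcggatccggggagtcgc
SRF, chr6:43171019-43171268, plus strand, bases -250 to -1: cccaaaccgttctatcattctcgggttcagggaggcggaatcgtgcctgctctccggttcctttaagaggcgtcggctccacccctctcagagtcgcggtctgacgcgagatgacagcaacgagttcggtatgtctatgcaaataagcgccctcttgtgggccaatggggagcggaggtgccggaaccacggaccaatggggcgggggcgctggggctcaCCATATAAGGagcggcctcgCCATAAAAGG

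JUN held its TGACATCA at bases -67 to -60 and JUND a TGACGTCA at bases -200 to -193. EGR1 held CArG boxes at bases -105 to -96 and -83 to -74, and SRF, whose product binds that motif, held them at bases -30 to -21 and -10 to -1. Among all 35116 RefSeq windows of 250 bases, 1.16% held a CArG box, 6.57% TGANTCA, 1.65% TGACGTCA and 2.37% TGACATCA. The windows of JUNB, FOS, FOSB, FOSL2 and IER2 held no match to any of these motifs. Sites more than 250 bases before the start, or after it, were not searched, so these genes may hold such motifs there. TGANTCA was found in none of the factors' windows that were searched. A match describes the letters of the window and says nothing of binding in these cells. No binding was measured here.

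The libraries held 16151360 to 18040010 counts. By these totals 3 counts stood for 0.166 to 0.186 CPM (counts scaled to a common library size). This floor covers counting error alone. The levels below are CPM after TMM scaling, for which the floor differs. In vehicle replicate 3, 4 counts of FOSB were 0.36 CPM on that scale. Vehicle replicate 3 stood apart: across genes its log2 CPM correlated with the other 7 libraries at 0.849 to 0.867, and the 21 pairs among those 7 at 0.989 to 0.995. The 10 factors are therefore described mainly with 7 libraries, without vehicle replicate 3, and their levels and uncorrected fold changes with all 8 as well. The line's markers VIM, CD44, AXL, CAV1 and ZEB1 were all counted, at 64.9 to 1260 CPM in the 7 libraries, where 2 of these 5 were called higher and 1 lower. ESR1 and PGR were not among the listed genes, and the leukocyte genes PTPRC and CD3E were not listed either. Also looked at, as genes expected to be low in this line, were ERBB2 at 82.5 to 109 CPM, CDH1 at 1.87 to 3.88 CPM and EPCAM at 11.1 to 15 CPM. ERBB2 lay above ZEB1 (64.9 to 76.3 CPM) and below VIM, CD44, AXL and CAV1 (491 to 1260 CPM). CPM are not scaled to transcript length and no other line was compared, so these values do not tell whether ERBB2 was low. The markers of vehicle replicate 3 differed in both directions. It held 58.8 CPM of EPCAM, 2200 of VIM and 1040 of CD44. It also held 1.61 CPM of CDH1, 71.1 of ERBB2, 415 of AXL, 358 of CAV1 and 28.6 of ZEB1. Of 4 tested genes of endothelial cells and fibroblasts, PDGFRB (5.96 to 8.33 CPM) was lower with 7 libraries and none was after GC correction, and the part of such cells in the results was not tested. Nothing in the labels ties libraries to cultures, and p-values cover spread that may be technical. In bulk RNA a change in every cell and a change in some of the cells cannot be told apart.

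By FPKM (fragments scaled to transcript length and depth, the authors' own values, by which genes can be compared), FOSL1 had the highest mean in both groups without vehicle replicate 3, among the 9 factors that the FPKM table lists, FOSB being in the count table only. With all 4 vehicle libraries JUND averaged 157.8 FPKM and FOSL1 125.5 FPKM. FOSL1 averaged 124.2 ± 2.25 FPKM with c-di-GMP (SD, n = 4) and 142.0 ± 8.3 FPKM with vehicle (SD, n = 3, without replicate 3), where it ranked 215 and 153 among the listed genes. With c-di-GMP, FOSL2 followed at 59.4 ± 2.27 FPKM, JUND at 58.8 ± 2.55 FPKM and JUN at 58.7 ± 0.985 FPKM, and the ranges of these neighbours overlapped. With vehicle, JUND was next to FOSL1 at 103.7 ± 11.8 FPKM, above JUN at 74.3 ± 6.15 FPKM and FOSL2 at 69.9 ± 4.76 FPKM. The ranges of JUN and FOSL2 overlapped there, and those of JUND and JUN did not.

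The lower part of the order was the same in both groups, with ranges that did not overlap between neighbours. SRF averaged 34.9 ± 0.328 FPKM with c-di-GMP and 41.0 ± 3.47 FPKM with vehicle, and JUNB 18.3 ± 0.958 FPKM with c-di-GMP and 24.5 ± 2.03 FPKM with vehicle. IER2, a nuclear protein of the early serum response, averaged 13.4 ± 0.661 FPKM with c-di-GMP and 15.3 ± 0.875 FPKM with vehicle. The serum-responsive zinc finger factor EGR1 was far below these, at 1.71 ± 0.0576 FPKM with c-di-GMP and 1.58 ± 0.0972 FPKM with vehicle. FOS was the lowest, at 0.509 ± 0.127 FPKM with c-di-GMP and 0.600 ± 0.162 FPKM with vehicle. Of the 6 subunits with FPKM values, FOSL1, FOSL2, JUND and JUN thus made up most of the AP-1 RNA.

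With 7 libraries 7 of the 10 factors fell, beside 16.2% of the 15647 genes tested, and 0 rose, beside 13.5%. Among genes of like GC content the share that fell was larger for each of the 7, as given below. JUND, JUNB, JUN, FOSL2, SRF, IER2 and FOSL1 fell, in order from the most negative log2 fold change, and FOS, FOSB and EGR1 did not pass (edgeR quasi-likelihood test, adjusted p under 0.05). The calls were the same in number with DESeq2 and limma-voom, 7 each, and 0 factors were higher at an unadjusted p under 0.05. The median log2 fold change of the 10 was -0.25, beside 0.0014 over all genes. The c-di-GMP libraries lay wholly below vehicle replicates 1, 2 and 4 in the same 7 genes, beside 18.1% of all genes.

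**Figure D1:**
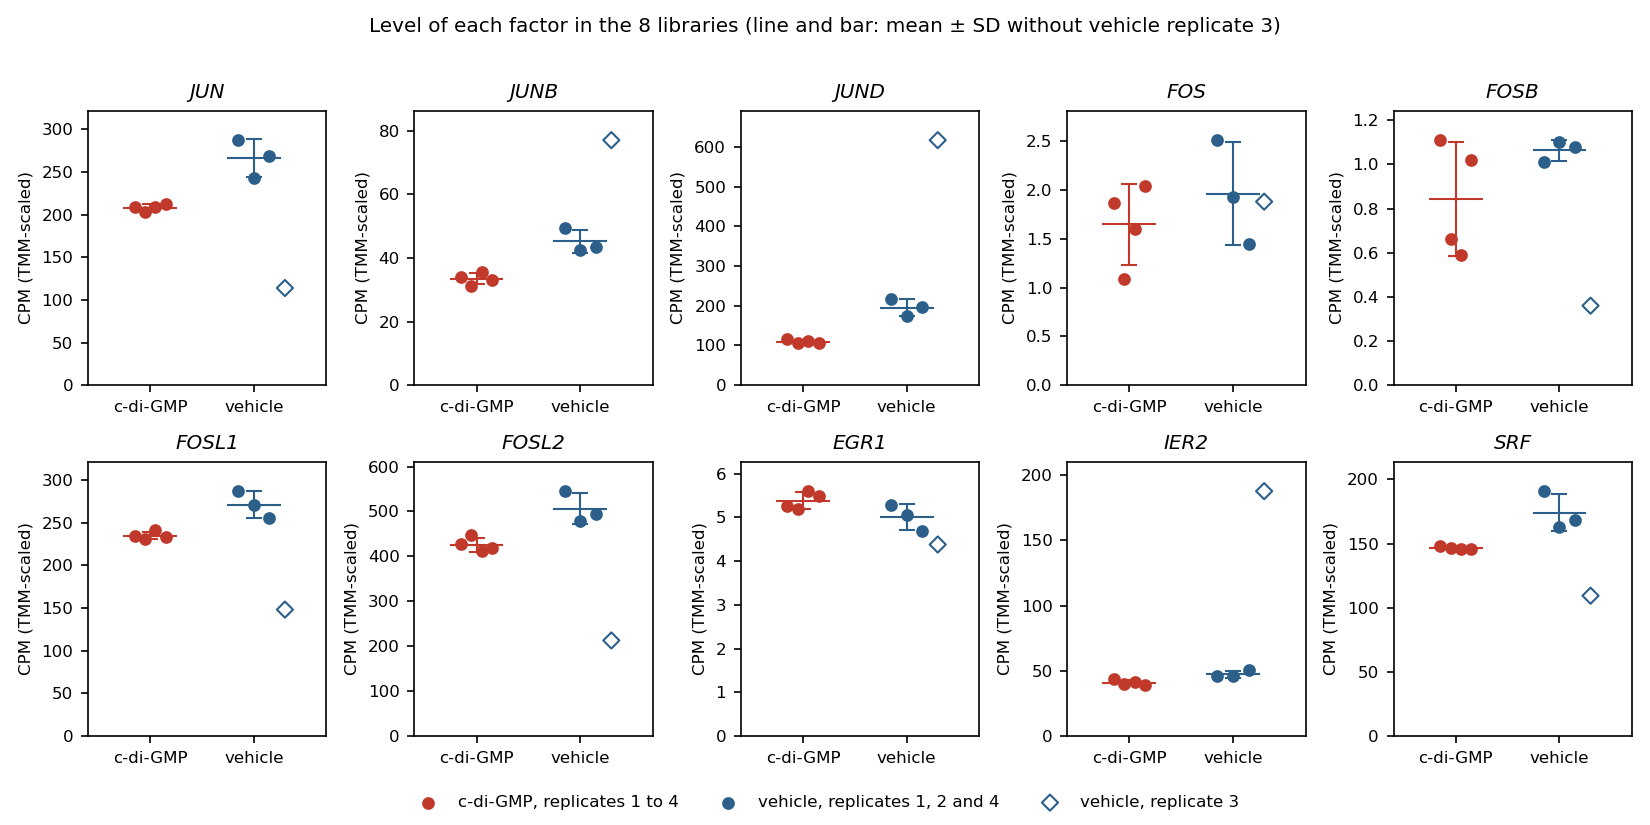
Level of each factor in CPM after TMM scaling, a linear axis from 0, with c-di-GMP libraries on the left of each panel and vehicle libraries on the right. Points are libraries, lines and bars the mean ± SD, and the open diamond is vehicle replicate 3, which is not in the mean. The c-di-GMP points of JUND lie between 105.9 and 116.2 CPM, below every vehicle point.

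JUND, the Jun protein that most tissues hold at a steady level, changed more than the other 9 factors. It stood at 116.2, 105.9, 110.1 and 106.6 CPM in the c-di-GMP libraries, against 217.8, 173.2 and 196.0 CPM in vehicle replicates 1, 2 and 4. Every c-di-GMP library was below every vehicle library, and vehicle replicate 3 was far above both groups at 617.6 CPM. With 7 libraries it fell by 0.84 on the log2 scale (± 0.06 SE, a fold of 0.559, edgeR quasi-likelihood test, adjusted p = 1.11e-09), and 85 of 15647 genes (0.543%) had a lower log2 fold change.

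JUN, the founding AP-1 subunit and the partner of Fos proteins at TGANTCA sites, is listed under the altered name June and was matched by its identifier ENSG00000177606. It stood at 209.0, 202.8, 209.3 and 211.9 CPM in the c-di-GMP libraries, against 287.3 (replicate 1), 243.2 (replicate 2) and 268.3 CPM (replicate 4) with vehicle. Vehicle replicate 3 had 113.9 CPM. The c-di-GMP libraries lay close together, below vehicle replicates 1, 2 and 4 and above replicate 3. With 7 libraries it fell by 0.36 on the log2 scale (± 0.05 SE, adjusted p = 5.13e-06).

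JUNB, a Jun protein that activates less strongly than JUN and is induced early by serum, stood at 33.9, 31.3, 35.5 and 33.0 CPM in the c-di-GMP libraries, against 49.4, 42.6 and 43.4 CPM in vehicle replicates 1, 2 and 4 and 77.0 CPM in replicate 3. The groups did not overlap, with or without that library. With 7 libraries it fell by 0.44 on the log2 scale (± 0.06 SE, adjusted p = 1.57e-05). Its exons overlap those of HOOK2 on the opposite strand, and whether counting used strand is not stated. How reads in the stretch shared by the 2 genes were counted is therefore not known. HOOK2, a microtubule linker, stood at 19.0, 20.8, 25.7 and 20.8 CPM in the c-di-GMP libraries, against 28.0, 24.5 and 25.6 CPM in vehicle replicates 1, 2 and 4, with a log2 fold change of -0.27 ± 0.08 (SE, adjusted p = 0.0134).

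Of the Fos subunits, the abundant FOSL1 and FOSL2 fell with 7 libraries, and the rare FOS and FOSB did not pass the test. FOSL1 stood at 234.1, 231.1, 241.1 and 233.3 CPM with c-di-GMP, against 287.1, 270.4 and 256.0 CPM in vehicle replicates 1, 2 and 4 and 148.3 CPM in replicate 3, and it fell by 0.21 on the log2 scale (± 0.04 SE, adjusted p = 0.000662). FOSL2, or Fra-2, stood at 427.0, 447.7, 411.8 and 418.4 CPM with c-di-GMP, against 545.2, 479.9 and 494.3 CPM in vehicle replicates 1, 2 and 4 and 213.0 CPM in replicate 3, and it fell by 0.25 (± 0.05 SE, adjusted p = 0.000218). For both genes the c-di-GMP libraries lay below vehicle replicates 1, 2 and 4 and above replicate 3. FOS, the inducible partner of JUN, had 1.87, 1.09, 1.60 and 2.04 CPM with c-di-GMP, against 2.51, 1.93 and 1.45 CPM in vehicle replicates 1, 2 and 4 and 1.88 CPM in replicate 3.

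FOS rested on 20 to 47 counts per library and FOSB on 4 to 21. FOSB, an inducible Fos protein known for a truncated form in brain, had 1.11, 0.66, 0.59 and 1.02 CPM with c-di-GMP, against 1.01, 1.10 and 1.08 CPM in vehicle replicates 1, 2 and 4 and 0.36 CPM in replicate 3. The groups overlapped for both. Their log2 fold changes were -0.26 ± 0.24 (SE, adjusted p = 0.454; 95% interval -0.75 to 0.24) for FOS and -0.34 ± 0.29 (SE, adjusted p = 0.408; -0.94 to 0.26) for FOSB, so that changes as large as those of JUN and FOSL2 lie within both intervals.

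Among the 3 factors outside AP-1, SRF and IER2 fell with 7 libraries. SRF stood at 148.4, 146.9, 146.1 and 145.8 CPM with c-di-GMP, against 190.9, 163.1 and 168.7 CPM in vehicle replicates 1, 2 and 4 and 109.4 CPM in replicate 3, and it fell by 0.25 (± 0.05 SE, adjusted p = 0.000353). IER2 stood at 43.5, 40.2, 41.8 and 38.9 CPM with c-di-GMP, against 45.8, 45.9 and 50.7 CPM in vehicle replicates 1, 2 and 4 and 187.8 CPM in replicate 3, and it fell by 0.21 (± 0.06 SE, adjusted p = 0.00765). The IER2 groups were separated by a small gap, and without vehicle replicate 4 its adjusted p was 0.0689. A gene on the opposite strand that is not in the count table, AC011446.2, overlaps IER2. How reads in that shared stretch were counted is not known either.

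EGR1 was the 1 factor with a positive log2 fold change, and it did not pass the test. It had 5.27, 5.19, 5.60 and 5.48 CPM with c-di-GMP, against 5.29, 5.06 and 4.69 CPM in vehicle replicates 1, 2 and 4 and 4.38 CPM in replicate 3, from 49 to 105 counts per library. Vehicle replicate 1 lay among the c-di-GMP libraries. The log2 fold change was 0.10 ± 0.12 (SE, adjusted p = 0.577), with a 95% interval of -0.15 to 0.35.

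With all 8 libraries 0 of the 10 factors passed, as did 0 of 15415 genes (0%) by edgeR, of which 960 (6.23%) had an unadjusted p under 0.05. Among these were 2 of the factors, JUND with a log2 fold change of -1.46 ± 0.41 (SE, adjusted p = 0.623) and JUNB with -0.67 ± 0.20 (SE, adjusted p = 0.623). DESeq2 called 134 genes (0.869%) and limma-voom 0, none of them among the 10. IER2 had a log2 fold change of -1.0 ± 0.48, and those of JUN, FOSL1, FOSL2 and SRF were between -0.13 and -0.02. FOS had -0.24 ± 0.26, FOSB -0.11 ± 0.37 and EGR1 0.15 ± 0.12 (log2 fold changes with SE). JUNB, JUND and IER2 were the 3 factors whose c-di-GMP libraries all lay below all 4 vehicle libraries, beside 7.29% of all genes.

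**Figure D2:**
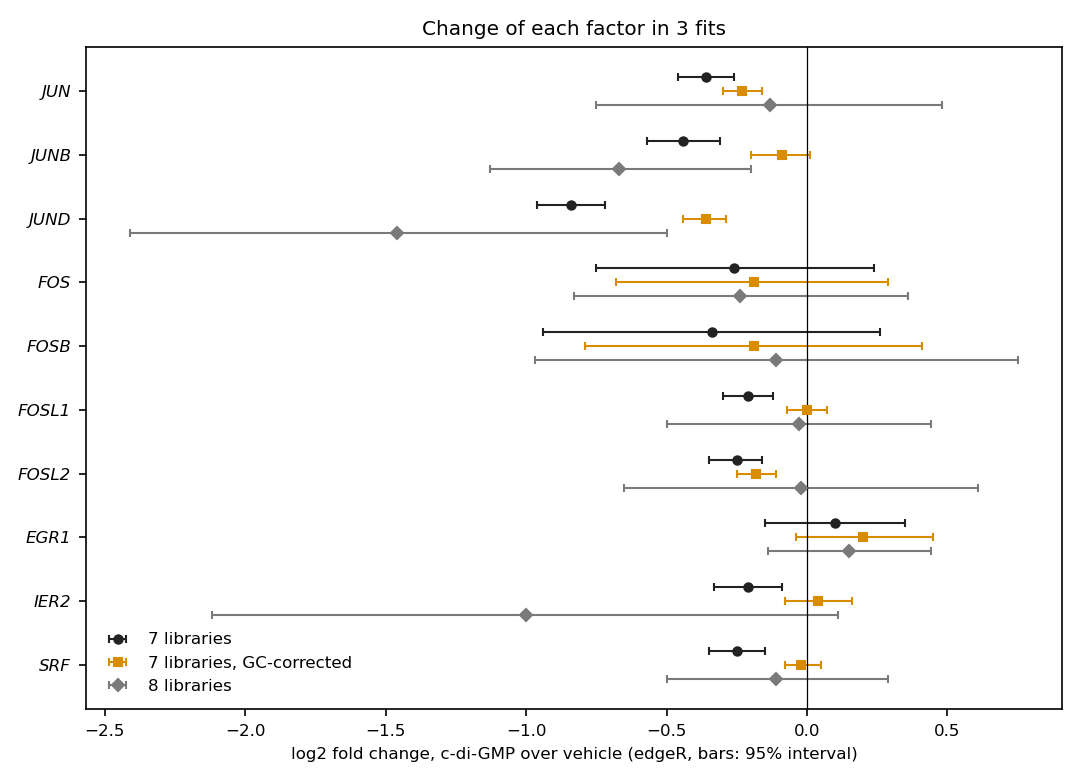
Log2 fold change of each factor (c-di-GMP over vehicle) from edgeR with 7 libraries, with 7 libraries after GC correction and with all 8 libraries. Points are estimates and bars 95% intervals. JUN, JUND and FOSL2 have intervals below 0 in both fits with 7 libraries, and for each of the 10 factors the interval is widest with 8 libraries.

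The fold changes of all genes declined with GC content, the share of G and C in a transcript. The mean GC content of the counted transcripts was 49.0% to 49.1% in the c-di-GMP libraries and 49.6% to 50.2% in the vehicle libraries. The longest transcript of JUND is 69.7% G and C, that of JUNB 64.9%, those of IER2, SRF and FOSL1 60.0% to 61.7%, and those of JUN and FOSL2 56.7% and 53.3%. The 3 factors that did not pass had 52.6% (FOS), 57.7% (FOSB) and 55.4% (EGR1). Among the 162 genes within 2.5 percentage points of JUND, the median log2 fold change was -0.48 and 72.2% were called lower, and 4.94% had a lower value than JUND. For FOSL1, IER2 and SRF the medians of the genes of like GC content were -0.22, -0.26 and -0.24, near their own values of -0.21, -0.21 and -0.25. JUN and FOSL2 lay further from theirs, with -0.36 beside -0.13 for JUN and -0.25 beside -0.08 for FOSL2. Of the genes of like GC content, 12.5% had a lower value than JUN and 17.5% a lower one than FOSL2. JUNB had -0.44 beside -0.33, with 29.2% lower. Of the genes of like GC content, 61.7% were called lower for JUNB, 50.8% for IER2 and 48% for SRF. The shares were 44% for FOSL1, 28.9% for JUN and 17.6% for FOSL2. For the factors that did not pass, FOS had -0.26 ± 0.24 beside -0.07, FOSB -0.34 ± 0.29 beside -0.16 and EGR1 0.10 ± 0.12 beside -0.11 (SE). The interval given above for each of these factors contains the median of its genes of like GC content. These values therefore do not tell whether FOS, FOSB or EGR1 lay apart from such genes.

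When the trend of each library on GC content was entered as an offset, JUN, JUND and FOSL2 passed the test and the other 7 did not. These 3 of 10 stand beside 6.62% of all genes lower and 8.58% higher, and 0 factors rose, also at an unadjusted p under 0.05. JUND had a GC-corrected log2 fold change of -0.36 ± 0.03 (SE, adjusted p = 8.4e-08), JUN of -0.23 ± 0.03 (SE, adjusted p = 5.62e-05) and FOSL2 of -0.18 ± 0.04 (SE, adjusted p = 0.000784). With all 8 libraries the GC-corrected values were -0.77 ± 0.30 for JUND, -0.01 ± 0.23 for JUN and 0.04 ± 0.24 for FOSL2 (SE, adjusted p = 0.803, 0.979 and 0.946). With 7 libraries the size of the JUND change was thus less than that of the uncorrected fit by more than 1.5 times, and that of JUN as well.

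The other 4 factors that fell without the correction were near 0 with it. JUNB had -0.09 ± 0.05 (SE, adjusted p = 0.238), SRF -0.02 ± 0.03 (SE, adjusted p = 0.8), FOSL1 -0.00086 ± 0.03 (SE, adjusted p = 0.989) and IER2 0.04 ± 0.06 (SE, adjusted p = 0.743). With gene length corrected too, JUNB had -0.18 ± 0.05 (SE) and passed (adjusted p = 0.0153). EGR1 had 0.20 ± 0.12 (SE, adjusted p = 0.283), and its GC-corrected c-di-GMP values all lay above vehicle replicates 1, 2 and 4, beside 12.9% of all genes, while those of JUN, JUNB, JUND and FOSL2 all lay below, beside 10.7%. HOOK2, the gene across from JUNB, had a GC-corrected log2 fold change of -0.01 ± 0.07 (SE, adjusted p = 0.935).

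**Figure D3:**
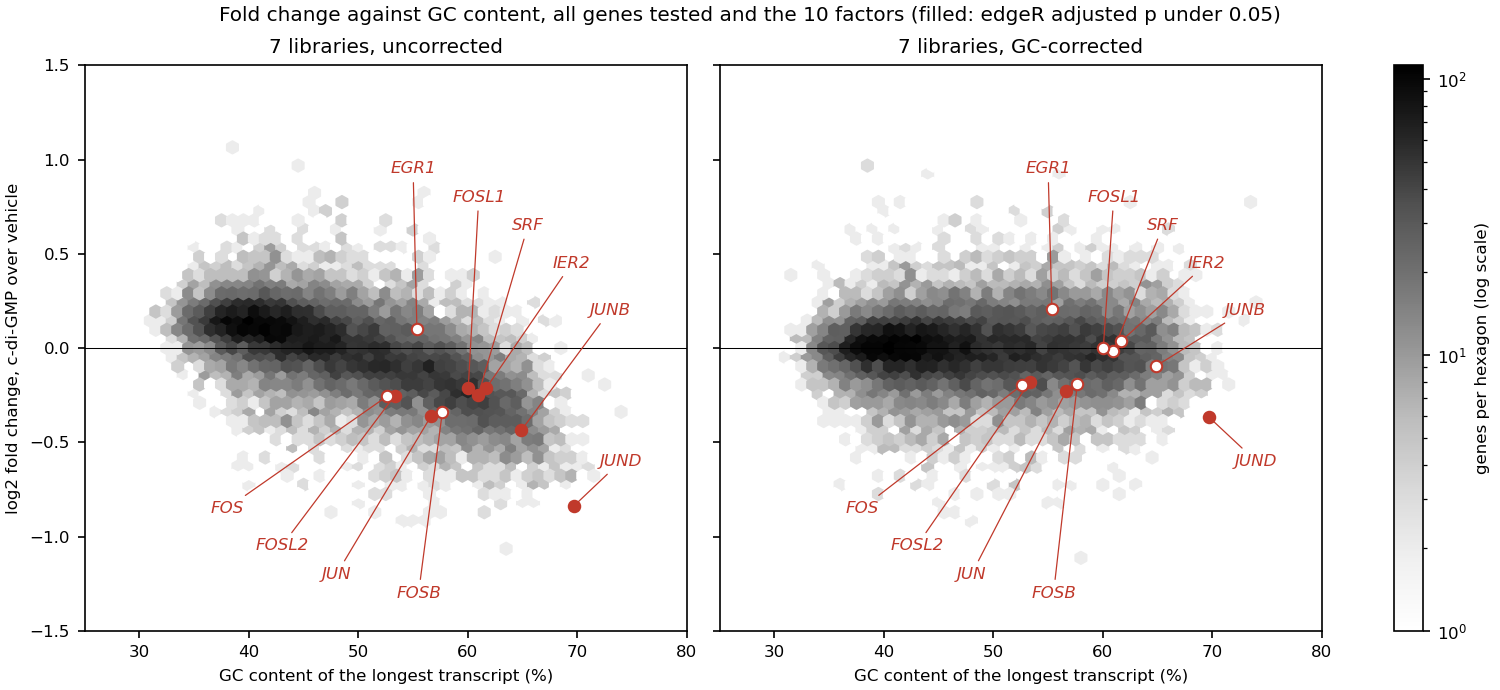
Log2 fold change (c-di-GMP over vehicle, 7 libraries) against the GC content in percent of the longest transcript, without and with GC correction. Grey hexagons count all genes on a log scale (10 genes without and 8 with the correction lie outside the axis), red points are the 10 factors, filled where the edgeR adjusted p is under 0.05. Uncorrected values decline with GC content, and JUND lies at 69.7% GC at the lower edge in both panels.

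Since JUND fell more than the other subunits, its share of the summed FPKM of 6 subunits (FOSL1, FOSL2, FOS, JUN, JUND and JUNB) also differed. JUND made up 19.2%, 18.0%, 18.3% and 18.0% in the c-di-GMP libraries, against 25.7%, 23.5% and 25.7% in vehicle replicates 1, 2 and 4, and 64.4% in vehicle replicate 3. FOSL1 made up 38.2% to 39.5% with c-di-GMP, against 33.1% to 36.2% in vehicle replicates 1, 2 and 4. The ratio of JUND to JUN was 0.956 to 1.06 with c-di-GMP, against 1.35 to 1.44 in those 3 vehicle libraries. JUN itself kept a similar share, 18.1% to 18.8% with c-di-GMP and 17.3% to 18.5% in vehicle replicates 1, 2 and 4, beside 6.25% in vehicle replicate 3, and FOS was at most 0.198% of the sum in all 8 libraries. These shares are uncorrected for GC content, in which JUND (69.7%) exceeds JUN (56.7%), and they were not tested.

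**Figure D4:**
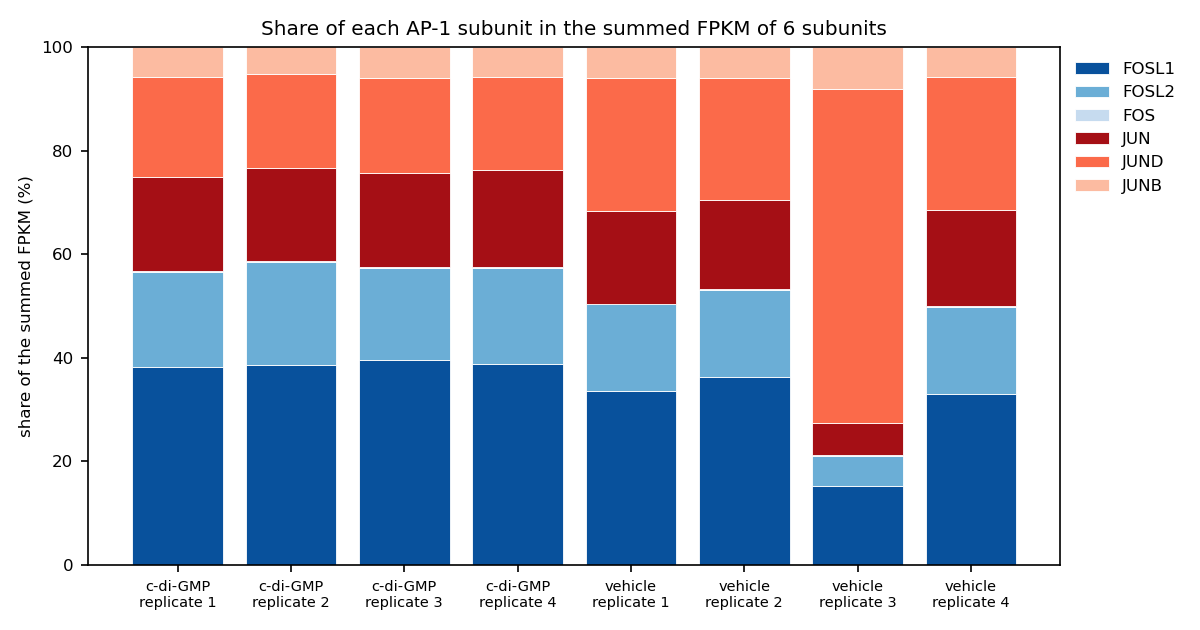
Share in percent of each AP-1 subunit in the summed FPKM of 6 subunits, 1 bar per library, with c-di-GMP libraries on the left and vehicle libraries on the right (FOS is too rare to be seen, and FOSB has no FPKM). JUND takes 18.0% to 19.2% with c-di-GMP, 23.5% to 25.7% in vehicle replicates 1, 2 and 4 and 64.4% in vehicle replicate 3.

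Vehicle replicate 3 did not shift the 10 factors in 1 direction. Relative to the mean of the other 3 vehicle libraries, IER2 stood at 3.96 times, JUND at 3.16 times and JUNB at 1.71 times. On the TMM scale FOS (0.955 times) and EGR1 (0.874 times) were close to the other vehicle libraries. SRF stood at 0.628 times, FOSL1 at 0.547, JUN at 0.428, FOSL2 at 0.42 and FOSB at 0.336 times. In that library JUND had the highest FPKM of the 9 factors, 320.1, and FOSL1 had 75.9.

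Genes around the 10 factors were counted in 6 lists drawn from general knowledge, and with all 8 libraries 0 genes of any list passed, as for all genes. The counts of each list with 7 libraries stand beside 16.2% of all genes lower and 13.5% higher, and those with GC correction beside 6.62% lower and 8.58% higher. Partners of Jun and Fos proteins in the bZIP family gave 5 lower and 1 higher of 14 tested with 7 libraries, with a median log2 fold change of -0.09 beside 0.0014 over all genes. Among the lower ones were the small Maf proteins MAFK (-0.31 ± 0.05, adjusted p = 3.99e-05), MAFF (-0.26 ± 0.05, adjusted p = 0.000238) and MAFG (-0.23 ± 0.04, adjusted p = 0.000337), which lack an activation domain, and the AP-1 repressor JDP2 (-0.31 ± 0.10, adjusted p = 0.0201; log2 fold changes with SE). The higher one was ATF7, named after its value was seen. DESeq2 gave 4 lower and 0 higher and limma-voom 5 lower and 0 higher. With all 8 libraries MAFK had 0.03, MAFG 0.01 and JDP2 -0.15. With GC correction 0 of the 14 passed in either direction, with 3 lower and 1 higher at an unadjusted p under 0.05.

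Upstream kinases and cofactors showed no common direction, with 4 higher and 3 lower of 21 tested and a median of 0.02. MRTFA, the actin-regulated coactivator of SRF, was lower, with 22.9 ± 0.65 CPM with c-di-GMP (SD, n = 4), against 30.7 ± 3.46 CPM with vehicle (SD, n = 3), a log2 fold change of -0.42 ± 0.07 (SE, adjusted p = 7.94e-05) that was -0.18 ± 0.06 after GC correction (adjusted p = 0.0334). The MAP kinase kinases MAP2K7, which acts on JNK, and MAP2K2, which acts on ERK, were lower as well (-0.25 ± 0.04 and -0.27 ± 0.05, adjusted p = 0.000191 and 0.000322), but not after GC correction (0.04 and -0.04, adjusted p = 0.55 and 0.546). NACA, a nascent chain factor that also acts as a JUN coactivator, was higher at 0.22 ± 0.05 (SE, adjusted p = 0.000759) and 0.31 ± 0.04 GC-corrected (SE, adjusted p = 2.22e-05). Among the other higher genes were MAPK8 and ELK4, named after their values were seen. With GC correction ELK3 and MRTFA were lower. Over all 8 libraries MAP2K7 had -0.05, MAP2K2 -0.62 and NACA -1.18, and vehicle replicate 3 held 53.4, 457.5 and 1277 CPM of them.

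Other immediate early genes gave 9 lower and 3 higher of 26 tested, and 7 lower and 3 higher with GC correction, with medians of -0.09 and -0.06. IER3, a survival factor, had 423.0 ± 11.6 CPM with c-di-GMP (SD, n = 4), against 555.5 ± 45.2 CPM with vehicle (SD, n = 3), a log2 fold change of -0.40 ± 0.05 (SE, adjusted p = 1.28e-06). IER5, a regulator of the heat shock factor HSF1, had 127.5 ± 3.88 CPM with c-di-GMP, against 165.4 ± 13.6 CPM with vehicle, and a log2 fold change of -0.38 ± 0.05 (SE, adjusted p = 4.1e-06). The zinc finger factor KLF2 had -0.68 ± 0.08 (SE, adjusted p = 1.96e-06) and the small GTPase RHOB -0.30 ± 0.06 (SE, adjusted p = 0.000562). All 4 passed the test after GC correction too, with log2 fold changes of -0.22 for IER3, -0.37 for IER5, -0.33 for KLF2 and -0.16 for RHOB (adjusted p = 2.27e-05, 1.47e-06, 0.00236 and 0.0491). Over all 8 libraries IER3 had -0.85, IER5 -0.97 and KLF2 -1.08, none past the threshold. DESeq2 gave 8 lower and 2 higher. The higher genes were KLF6, CTGF and SGK1 without the correction and CTGF, GADD45B and ID3 with it, named after their values were seen.

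SRF targets, the actins and actin-binding proteins, gave 7 lower and 3 higher of 19 tested, and 3 lower and 5 higher with GC correction. Nonmuscle myosin MYH9 had 1937 ± 67.2 CPM with c-di-GMP (SD, n = 4), against 2526 ± 244 CPM with vehicle (SD, n = 3), with a log2 fold change of -0.39 ± 0.05 (SE, adjusted p = 5.06e-06) and -0.21 ± 0.04 GC-corrected (adjusted p = 0.000221). Filamin FLNA (-0.36 ± 0.05, adjusted p = 1.41e-05) and talin TLN1 (-0.23 ± 0.04, adjusted p = 0.000318) were lower only without the correction (-0.09 and -0.08, adjusted p = 0.0952 and 0.114), and calponin CNN2 in both (-0.23 and -0.11, adjusted p = 0.000443 and 0.0211). With all 8 libraries MYH9 and FLNA had -0.06 each, TLN1 0.14 and CNN2 0.09, and vehicle replicate 3 held 519.9 CPM of MYH9. DESeq2 gave 7 lower and 2 higher. The higher ones were ACTA2, TPM1 and ANKRD1 without the correction and ACTG1, ACTA2, TAGLN2, MYL9 and CFL1 with it, and TPM2 was the third gene that was lower with it. These were named after their values were seen.

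Known AP-1 targets gave 6 lower and 0 higher of 17 tested (median -0.07; 0 higher also by DESeq2, by limma-voom and at an unadjusted p under 0.05), and 6 lower and 2 higher, PLAU and TIMP1, with GC correction. The collagenase MMP1, whose promoter is a textbook AP-1 target, had 295.6 ± 9.91 CPM with c-di-GMP (SD, n = 4), against 373.5 ± 3.08 CPM with vehicle (SD, n = 3). Its log2 fold change was -0.34 ± 0.04 (SE, adjusted p = 1.36e-06) and -0.43 ± 0.03 GC-corrected (SE, adjusted p = 3.47e-09). The cytokine LIF (-0.28 and -0.14, adjusted p = 8.58e-05 and 0.00713) was lower in both, and the chromatin protein HMGA1 without the correction (-0.23 and 0.02, adjusted p = 0.00128 and 0.753). MMP1 had -0.63 and LIF 0.05 with all 8 libraries. PLAU and TIMP1 were named after their values were seen.

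Target and feedback genes of the ERK cascade gave 5 lower and 0 higher of 10 tested, with a median of -0.12. DESeq2, limma-voom and an unadjusted p under 0.05 also gave 0 higher. With GC correction 4 were lower and 0 higher. The ERK phosphatase DUSP4 had 595.1 ± 10.2 CPM with c-di-GMP (SD, n = 4), against 740.5 ± 40.1 CPM with vehicle (SD, n = 3), with a log2 fold change of -0.32 ± 0.04 (SE, adjusted p = 5.38e-06) and -0.28 ± 0.03 GC-corrected (SE, adjusted p = 2.5e-06). PHLDA1 (-0.14 and -0.22, adjusted p = 0.00628 and 1.22e-05) and the Ras inhibitor SPRED1 (-0.13 and -0.26, adjusted p = 0.021 and 8e-06) were lower in both, and the phosphatase DUSP5 without the correction (-0.16 and -0.05, adjusted p = 0.00996 and 0.479). DUSP4 had -0.12, PHLDA1 -0.48, SPRED1 -0.04 and DUSP5 -0.33 with all 8 libraries. The others were ETV4 without the correction and SPRY2 with it, named after their values were seen.

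**Figure D5:**
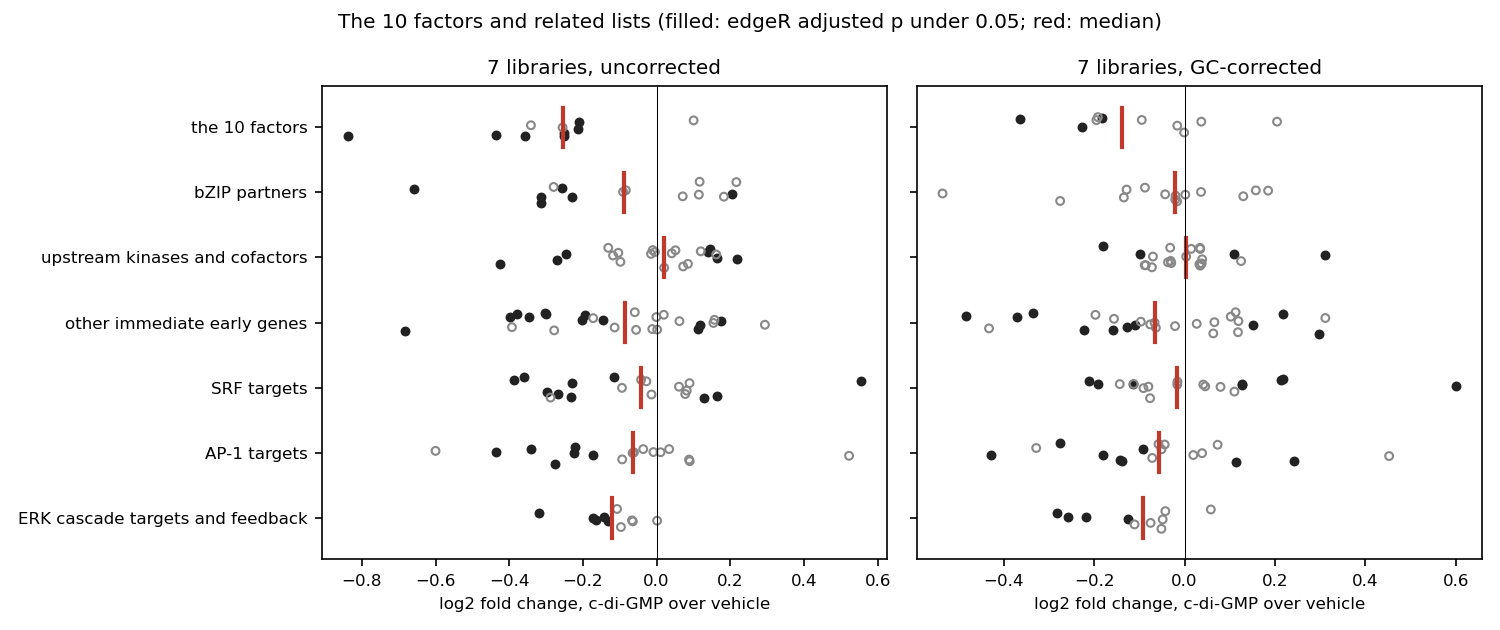
Log2 fold change (c-di-GMP over vehicle, 7 libraries) of the 10 factors and of the tested genes of 6 related lists, without and with GC correction. Each point is a gene, filled where the edgeR adjusted p is under 0.05, and red bars are medians. The median of the 10 factors is -0.25 without and -0.14 with the correction.

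Across the 7 libraries the genes whose log2 CPM was most like that of JUN among 9563 protein-coding genes of at least 10 CPM were CCDC85C (Pearson r = 0.997), PYCR1 (0.997) and SCAF1 (0.996). For FOSL1 they were TRAF2 (0.996), ETNK2 (0.993) and ANAPC2 (0.992). Such likeness was common, since 1405 genes exceeded 0.9 for JUN and 1166 for FOSL1, and the 7 libraries fall into 2 groups. EGR1 had 41 such genes among 9564, led by PPIF (0.985), ABCF1 (0.977) and IDH3B (0.975). Among the factors themselves, JUND correlated with JUN at 0.98, with JUNB at 0.98, with FOSL2 at 0.93 and with EGR1 at -0.60 over the same 7 libraries, which share the group difference and its GC trend.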

How the data were processed

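RNA-seq libraries of MDA-MB-231 cells (4 per group) were analysed from the deposited tables. The submitters' processing notes name HISAT2 2.0.5, featureCounts 1.5.0-p3, DESeq2 1.20.0, CASAVA 1.8 and fastp. The deposited count table holds read counts per gene, and the authors' FPKM table holds values scaled to length and a library size. The notes name a mouse build, but all 16383 identifiers are human and have the coordinates of GENCODE v29 (GRCh38).

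The filter on low counts was filterByExpr with a minimum count of 10 and a minimum total of 15. After TMM scaling, edgeR 4.0.16 (R 4.3.3) tested each gene by its quasi-likelihood method in a model with treatment alone, and p-values were adjusted by Benjamini-Hochberg over all genes tested (threshold 0.05). Levels are CPM on the TMM scale of all 8 libraries. The GC correction entered each library's lowess trend (span 0.3) over GC content (longest transcript of each gene) as an offset, and the length correction added gene length. Alternatives were DESeq2 1.42.0, limma-voom (limma 3.58.1), other scalings and filters, log2(FPKM + 1) and log2(FPKM + 0.1), replicate number as a block, and leaving out libraries.

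The 10 genes, the lists and the 7-library comparison were chosen with earlier results of these data known. Named from each list were the 4 genes of smallest p with 7 libraries, and for JUN, FOSL1 and EGR1 the 3 genes of highest correlation. Some genes of the lists are counted but not reported here by name.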

Additional observations from a re-analysis of the deposited data

Results flagged for a closer look

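In 3 of the 20 groups of 4 libraries (10 factors in each group), the gap of 1 library to its nearest neighbour exceeded the 95% critical value of Dixon's test, and in each it was vehicle replicate 3. Chance gives about 1 in 20 such groups on average. The groups here share the same libraries and are not independent, and vehicle replicate 3 was already known to stand apart. The count therefore describes that library and is no test of it. JUND stood there at 617.57 CPM, beside 173.2 to 217.8 CPM in the other vehicle libraries. IER2 stood there at 187.83 CPM, beside 45.8 to 50.7 CPM. FOSB stood there at 0.36 CPM, from 4 counts, against 19 to 21 counts in the other vehicle libraries.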

How the results depend on the processing

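With 7 libraries the 7 calls among the 10 factors were also 7 under both other scalings, both other filters, DESeq2, limma-voom, both FPKM fits and the replicate block, beside 4633 genes called in all. GC correction left 3 factors and 2379 genes, GC and length correction 4 factors and 2097 genes, and the replicate block with GC correction 3 factors and 1601 genes. IER2 then had a log2 fold change of 0.04 with GC correction, with and without the block. Leaving out 1 of the 7 libraries gave 6 to 7 factors and 3440 to 4826 genes. IER2 was lost without vehicle replicate 4. With GC correction JUN, JUND and FOSL2 passed whichever library was left out (an alternative chosen after seeing the data), while the genes called were 1476 to 2638, the fewest without vehicle replicate 1 and 1553 without vehicle replicate 4. FOSL1 then had -0.02 to 0.03 and IER2 -0.04 to 0.11.

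With 8 libraries 0 factors passed under each setting that kept vehicle replicate 3, and DESeq2 called 134 genes, against 0 by edgeR. Leaving out 1 library gave 0 to 4633 genes and 0 to 7 factors, the highest without vehicle replicate 3. FOSL1 and FOSL2, near 0, changed sign: to 0.05 and 0.04 with library totals, 0.02 and 0.09 with limma-voom, 0.03 and 0.08 on log2(FPKM + 1), 0.03 and 0.09 on log2(FPKM + 0.1), 0.15 and 0.04 with GC correction, 0.21 and 0.02 with GC and length correction, 0.01 and 0.06 with the replicate block, and 0.18 and 0.10 with the block and GC correction. FOSB had 0.02 and SRF 0.11 with GC correction, 0.01 and 0.12 with GC and length correction, and 0.07 and 0.12 with the block and GC correction, where JUN had 0.04. With 1 library left out, FOSL1 had -0.21 to 0.06, FOSL2 -0.25 to 0.11 and FOSB -0.34 to 0.04. Library totals moved the median of all genes by 0.13.

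Of the list genes, CNN2 (0.09), LIF (0.05), MAFG (0.01), MAFK (0.03), TLN1 (0.14) and NACA (-1.18) changed sign with vehicle replicate 3, and HMGA1 (0.02), MAFF (0.0017) and MAP2K7 (0.04) with GC correction. The causes of these changes were not tested. Libraries of 1 replicate number did not deviate together: the correlations of their deviations from the group means were -0.009 to 0.015 with 7 libraries and -0.058 to 0.184 with 8. The replicate block changed no call among the 10 factors. FOS and FOSB rested on 4 to 47 counts per library.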
